A study of Mus musculus with 12 samples.

Results

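Gfi1 and Gfi1b encode a pair of closely related zinc finger repressors of blood cells, and their transcripts were followed across 4 treatments of a mouse leukaemia culture. The members were chosen by gene symbol, which gave 2 of the 24411 genes in the table of normalised read counts. Both were among the 11484 genes with a mean of at least 10 that were tested, and both differed among the treatments (limma F-test, adjusted p = 1.5e-16 for Gfi1b and 1.06e-12 for Gfi1), as did 42.8% of tested genes. After GSK-LSD1, Gfi1b rose from 770.05 ± 54.9 to 4040.2 ± 143 normalised read counts and Gfi1 rose from 94.5 ± 4.02 to 348 ± 37.7 (mean ± SD, n = 3 libraries each). In the combination of both drugs the means were 4790 ± 384 for Gfi1b and 418 ± 31.9 for Gfi1 (n = 3).

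Both proteins bind DNA through zinc fingers at their C-terminal end, at sites with the core AATC. At their N-terminal end they carry a short SNAG domain, which resembles the tail of histone H3 and holds the histone demethylase LSD1 together with CoREST proteins and histone deacetylases. GFI1 is best known from granulocyte and lymphocyte development and from blood stem cells, and GFI1B from erythroid cells and megakaryocytes. Each is known to repress its own gene and that of the other. GSK-LSD1 is a tranylcypromine derivative that inactivates LSD1, and compounds of this class are known to loosen the contact between LSD1 and the SNAG domain.

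The cells were BALB/c mouse bone marrow cells that carry mutant CSF3R (the receptor of granulocyte colony-stimulating factor) and mutant CEBPA (a transcription factor of granulocytes), both brought in by retroviral transfer. All 4 groups shared these alleles and a culture in IMDM with fetal bovine serum. For 24 h they received DMSO (the solvent), ruxolitinib at 50 nM, which blocks the JAK1 and JAK2 kinases of cytokine receptors, GSK-LSD1 at 2 nM, or the combination of both drugs, with 3 RNA-seq libraries per treatment. Nothing says that the 3 libraries of a group came from separate cultures, so p-values measure only the spread between these libraries, which may be technical.

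The 12 libraries were of like depth, with 8260995 to 8528400 steps each, where a step is the value that 1 read would have. On the second principal component, which held 11.1% of the variance, ruxolitinib replicate 2 and combination replicate 3 lay below all other libraries, and the small differences of Gfi1b and the counts of partners, targets and regulators after GSK-LSD1 are also given without them. Granulocyte markers were abundant, with a summed level of 17421 to 19142 over 13 genes in DMSO, and so were mast cell and basophil markers, at 19198 to 21623 over 9 genes. The 4 globin genes of the erythroid list and Gp6, Cd4, Ms4a1 and Ncr1 of the megakaryocyte and lymphocyte lists were at 0 in every library. These are bulk samples, in which fewer cells of a type and less RNA per cell cannot be told apart.

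Promoter sequence is shown because both proteins are known to act on their own genes. The 100 bases before each RefSeq start site (GRCm38.p6) are written 5′ to 3′ on the gene's own strand, which is the minus strand for both, and capitals mark AATC or, for the other strand, GATT.
Gfi1b: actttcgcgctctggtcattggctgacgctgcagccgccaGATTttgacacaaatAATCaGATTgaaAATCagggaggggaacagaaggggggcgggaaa
Gfi1: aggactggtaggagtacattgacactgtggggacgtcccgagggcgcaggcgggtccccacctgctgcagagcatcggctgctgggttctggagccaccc
The Gfi1b stretch is chr2:28621983-28622082 and that of Gfi1 is chr5:107725806-107725905, with a GC content of 52% and 66%. AATC stood 4 times in the Gfi1b stretch, 2 times on each strand, starting at positions -60, -45, -40 and -33, where -1 is the base just before the start. None stood in the Gfi1 stretch. That stretch follows the RefSeq start at 107725805 and lies inside the GENCODE body of Gfi1, which starts at 107726036 on the minus strand. For Gfi1b both starts are 28621982, so the stretches are not placed alike. The Gfi1 window reached only to 107726055, so hardly any sequence before the GENCODE start of Gfi1 was searched. In the whole window from 250 bases before to 50 after the start, Gfi1b also had 4 matches and Gfi1 had 1, and the window of another RefSeq start of Gfi1 had none.

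The core is short and common. At least 1 AATC on either strand was in 73.1% of the 32851 promoter windows of the same length, and at least 4 were in 10.1%. The longer form AAATC, which holds AATC, was found 2 times in the Gfi1b window and in 35.9% of all windows, and AAATCA was found once there and in 14% of windows. AATCAC (in 10.4% of windows) and AGATAA, a form of the motif read by GATA factors (in 11.2%), were in neither gene's window. A match is a match of letters and not a site that was seen to be bound.

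Gfi1b was the more abundant transcript of the pair. Divided by exon length (1830 bases for Gfi1b and 3187 for Gfi1), the normalised level in DMSO was 421 per kilobase for Gfi1b and 29.6 for Gfi1. Among 11035 tested genes with a known length, this placed Gfi1b at percentile 90.5 and Gfi1 at percentile 29.1. After GSK-LSD1 the levels were 2208 and 109 per kilobase, at percentiles 99.3 and 61.6. Gfi1b thereby moved from place 1050 to place 76 from the top, and Gfi1 from place 7821 to place 4232. In the combination they stood at places 64 and 3635.

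In DMSO, Gfi1b (chromosome 2, 28609450 to 28621982, minus strand, GENCODE vM21 on GRCm38) had 833, 743 and 734 normalised read counts in replicates 1, 2 and 3. Ruxolitinib gave 917, 1130.2 and 858 counts of Gfi1b. GSK-LSD1 gave 4194, 3912 and 4015 counts. The 6 libraries without GSK-LSD1 and the 6 with it lay far apart, and within the first set each ruxolitinib library was above each DMSO library. In the combination, Gfi1b had 4494, 4651 and 5223 counts, all above the highest GSK-LSD1 library, and combination replicate 3, a library that stood apart, was the highest.

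Gfi1 (chromosome 5, 107716657 to 107726036, minus strand) had 91.4, 99.02 and 93.1 normalised read counts in DMSO. With ruxolitinib it had 124, 109 and 87.9 counts, a range that took in all 3 DMSO values. With GSK-LSD1 it had 349, 309.5 and 385 counts, and in the combination 432, 382 and 441. The lowest combination library lay below the highest GSK-LSD1 library, so these groups overlapped, while none of the 6 libraries with GSK-LSD1 came near those without. Gfi1 overlaps A430072P03Rik, a gene on the opposite strand that was not analysed here, and the strandedness of the libraries is not given in the sources used here, so its reads could be part of these values.

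**Figure D1:**
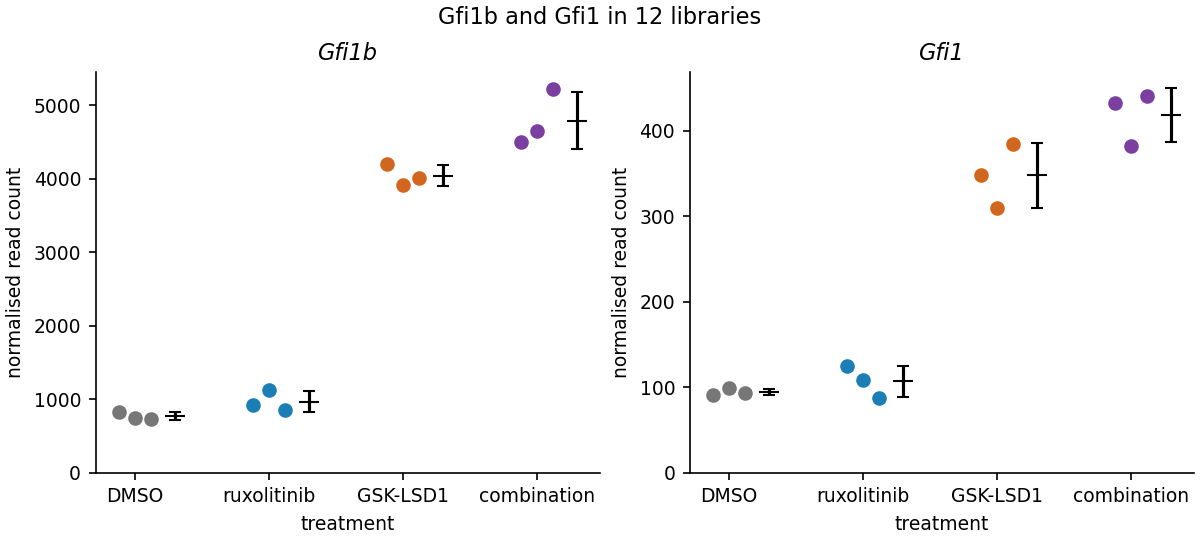
Normalised read counts of Gfi1b and Gfi1 in each of the 12 libraries, by treatment, on a linear axis from 0 for each gene; points are libraries, and bars give the mean ± SD of 3. The 3 GSK-LSD1 libraries sit between 3912 and 4194 for Gfi1b and between 309.5 and 385 for Gfi1, above all DMSO and ruxolitinib libraries.

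The spread between replicates was small beside these changes. For Gfi1b it came to a coefficient of variation of 7.13% in DMSO, 14.8% with ruxolitinib, 3.54% with GSK-LSD1 and 8.01% in the combination. The corresponding values for Gfi1 were 4.25%, 17.1%, 10.8% and 7.62%. For both genes the widest spread was in the ruxolitinib group. If the normalised values were reads, which was not shown, counting alone would give an SD of 27.8 around the DMSO mean of Gfi1b and 9.72 around that of Gfi1. The SD of 4.02 seen for Gfi1 was below this rough figure.

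The comparison of GSK-LSD1 with DMSO asks what inhibition of LSD1 alone does to the pair. Fold changes are on the scale of log2(value + 1), which understates those of low genes a little, and are given ± SE. Gfi1b rose by 2.39 ± 0.08 (limma adjusted p = 7.82e-15), or 5.25-fold. Its rise was number 25 by size of the 11484 genes tested. Gfi1 rose by 1.86 ± 0.12 (limma adjusted p = 1.13e-10), or 3.64-fold, number 63 by size. In this comparison 17.0% of tested genes passed as higher and 15.5% as lower, 32.5% in all. Like both members, 24.4% of tested genes were higher with no overlap between libraries. With a correction for GC content 1636 of 4720 genes that passed were higher, against 1948 of 3728 without it, and both members rose under either.

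On top of ruxolitinib, GSK-LSD1 raised both genes as well. From ruxolitinib to the combination, Gfi1b rose by 2.31 on the log2 scale (95% interval 2.14 to 2.48, limma adjusted p = 9.78e-15) and Gfi1 by 1.97 (1.72 to 2.21, adjusted p = 3.51e-11). In that comparison 16.0% of tested genes passed as higher, 15.6% as lower and 31.6% in all, and 19.3% were higher without overlap, as both members were. Against DMSO, the combination gave a rise of 2.63 for Gfi1b (limma adjusted p = 1.04e-15) and of 2.13 for Gfi1 (adjusted p = 1.04e-11), where 20.5% of genes passed as higher, 21.8% as lower and 42.3% in all, and 24.9% were higher without overlap. GSK-LSD1 set directly against ruxolitinib gave rises of 2.07 and 1.70 (limma adjusted p = 4.76e-14 and 4.05e-10), where 13.6% passed as higher, 11.8% as lower and 25.4% in all, and 19.8% were higher without overlap. These comparisons share control libraries, so they are not independent of each other.

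Ruxolitinib alone had a small effect on Gfi1b, whose call was not stable. Gfi1b rose by 0.32 ± 0.08 (95% interval 0.15 to 0.49, limma adjusted p = 0.0486) with no overlap between the libraries. In this comparison 1.00% of tested genes passed as higher and 0.627% as lower, while 10.9% were higher without overlap. Without ruxolitinib replicate 2, which had the highest value and stood apart, the difference was 0.21 (limma adjusted p = 0.217). Without both libraries that stood apart it was again 0.21 and passed (limma adjusted p = 0.0342). The call was also lost without DMSO replicate 1, 2 or 3, ruxolitinib replicate 1, GSK-LSD1 replicate 1, 2 or 3, or combination replicate 2, each taken alone, with adjusted p of 0.0582 to 0.203. For Gfi1 the difference was 0.17 ± 0.12 (95% interval -0.08 to 0.41, limma adjusted p = 0.484), which did not pass.

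The combination was then compared with GSK-LSD1 alone, which asks what ruxolitinib adds. For Gfi1b the difference was 0.24 (95% interval 0.07 to 0.41, limma adjusted p = 0.19), and it did not pass although the libraries did not overlap, as was so for higher levels of 8.81% of genes. For Gfi1 it was 0.27 (0.03 to 0.51, limma adjusted p = 0.345). In this comparison 1.05% of tested genes passed as higher and 0.348% as lower. The intervals allow an added rise of up to 0.41 and 0.51 on the log2 scale. Without ruxolitinib replicate 2, which enters only through the shared estimate of spread, Gfi1b passed at 0.24 (limma adjusted p = 0.0437). Without both libraries that stood apart it was at 0.18 and did not pass (limma adjusted p = 0.0848).

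Whether the response to GSK-LSD1 changed in the presence of ruxolitinib was tested as an interaction. It was -0.08 ± 0.12 for Gfi1b (95% interval -0.32 to 0.16) and 0.10 ± 0.17 for Gfi1 (-0.24 to 0.45), with a limma adjusted p of 1.00 for both. Neither passed, and 0.00871% of tested genes did, which was 1 gene. On the linear scale the combination lay 4019 counts above DMSO for Gfi1b, against 3468 for the sum of the single-drug differences, and the product of the single folds would give a level of 5081 where 4790 was measured. For Gfi1 the combination lay 324 counts above DMSO against a sum of 266, and the product would give 394 where 418 was measured.

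**Figure D2:**
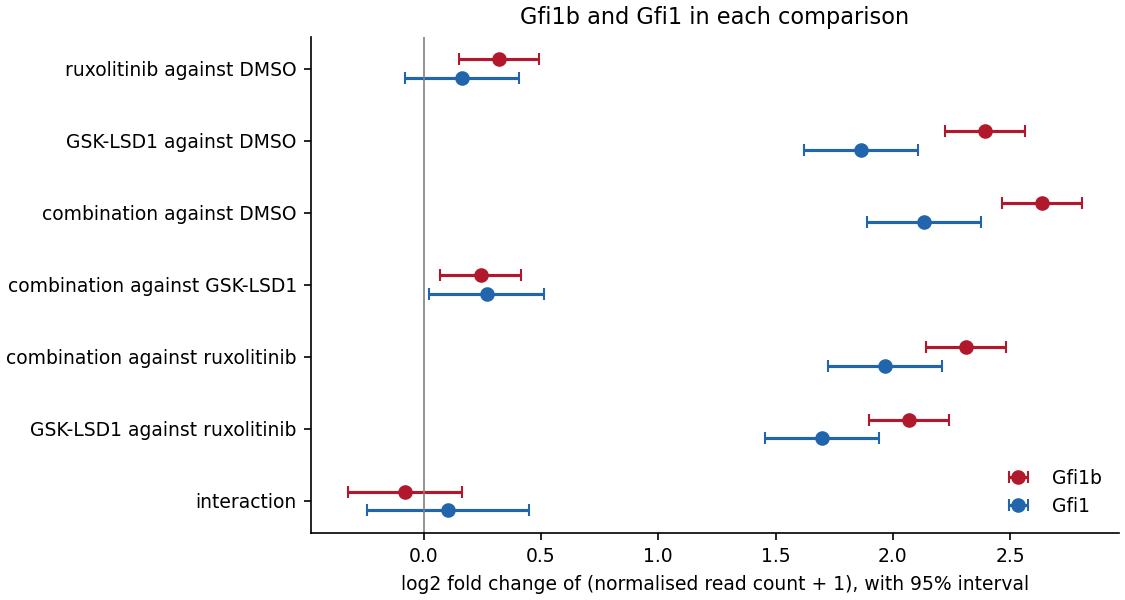
Log2 fold changes of Gfi1b and Gfi1 in each treatment comparison and the interaction; points are limma estimates on log2 of the value plus 1, and bars are 95% intervals. Comparisons of a group with GSK-LSD1 against a group without it lie between 1.70 and 2.63, and the interaction intervals of both genes include 0.

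With GSK-LSD1 the measured rise of Gfi1b was larger than that of Gfi1. Reads of A430072P03Rik could be part of the Gfi1 values, and their effect on the ratio was not tested. The log2 ratio of Gfi1b to Gfi1 within a library was 3.53 ± 0.12 in the 6 libraries with GSK-LSD1, ranging from 3.37 to 3.66. In the 6 libraries without it the ratio was 3.09 ± 0.21, ranging from 2.87 to 3.36. The ranges did not overlap, by a narrow margin. The difference of 0.44, a 1.35-fold change of the ratio, had p = 0.00216 in a two-sided exact permutation test, the smallest p that the 924 splits of 12 libraries can give. By group the log2 ratio was 3.01 in DMSO, 3.17 with ruxolitinib, 3.54 with GSK-LSD1 and 3.51 in the combination. Per kilobase of exon, the Gfi1b level was 14.2 times that of Gfi1 in DMSO and 20.2 times after GSK-LSD1.

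Genes of other cell types moved in the same libraries, and their counts stand against 17.0% of all tested genes higher and 15.5% lower after GSK-LSD1. With ruxolitinib alone the shares of all tested genes were 1.00% higher and 0.627% lower. The summed level of 11 monocyte and macrophage markers was 648 to 670 in DMSO, 606 to 642 with ruxolitinib, 1188 to 1207 with GSK-LSD1 and 1232 to 1262 in the combination, and 6 of its 8 tested genes rose and none fell after GSK-LSD1. Klf4 and Ly86 of that list were near 0. The granulocyte sum, 17421 to 19142 in DMSO, was 20374 to 27328 with ruxolitinib, 21658 to 23442 with GSK-LSD1 and 34232 to 37222 in the combination. Of its 12 tested genes 5 rose and none fell with ruxolitinib, and 4 rose and 3 fell after GSK-LSD1. The largest rise in counts on that list after GSK-LSD1 was that of Mmp8, a neutrophil collagenase, from 2074 to 5405. The mast cell and basophil sum was 19198 to 21623 in DMSO, 22633 to 24368 with ruxolitinib, 23274 to 24960 with GSK-LSD1 and 21918 to 24556 in the combination. Of its 9 genes 1 rose with ruxolitinib and 6 rose after GSK-LSD1, and none fell in either. Tpsab1, a mast cell tryptase, had the largest rise of that list after GSK-LSD1, 2.40 ± 0.34. It was a low gene, at 5.64 ± 2.10 counts in DMSO and 32.9 ± 1.97 with GSK-LSD1. The median change of the 9 mast cell and basophil genes was 0.31. The part of these cell type markers in the rise of Gfi1 and Gfi1b was not tested.

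Erythroid cells and megakaryocytes are the best known sites of Gfi1b expression. The summed level of the 12 erythroid markers was 919 to 1032 in DMSO, 1070.5 to 1208 with ruxolitinib, 796 to 815 with GSK-LSD1 and 791 to 1043 in the combination. It was below DMSO in each GSK-LSD1 library, overlapped DMSO in the combination and was above DMSO in each ruxolitinib library. Gata1 made up most of this sum, at 588 ± 33.7 in DMSO and 707 ± 57.0 with ruxolitinib. None of the 7 tested genes of this list passed with ruxolitinib alone. After GSK-LSD1, Slc4a1, an anion exchanger of red cells, fell by 1.86 (limma adjusted p = 6.09e-05). Klf1, an erythroid transcription factor, fell by 0.72 (limma adjusted p = 0.00593), and none of the 7 passed as higher. Without the libraries that stood apart 4 of the 7 fell, in a fit that called 4879 genes in place of 3728. The megakaryocyte sum was 2812 to 2888 in DMSO, 2845 to 3241 with ruxolitinib, 3437 to 3678 with GSK-LSD1 and 3477 to 3607 in the combination. Itga2b and Itgb3 made up most of that sum, at 1905 and 789 in DMSO and 1865 and 1565 with GSK-LSD1. The sum thus rose mainly through Itgb3. Of the 5 tested genes of this list Itgb3, an integrin subunit of platelets and other cells, rose by 0.99 (limma adjusted p = 1.59e-09). Gp1ba also passed as higher, a call that was lost without any 1 of the 6 DMSO and GSK-LSD1 libraries. Itga2b, the integrin subunit that defines the lineage, was at -0.03 (adjusted p = 0.744). The lymphocyte sum was 165 to 204 in DMSO, 196 to 202 with ruxolitinib, 226 to 279 with GSK-LSD1 and 241 to 265 in the combination, with Il7r the gene that rose among 2 tested after GSK-LSD1.

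Tested transcripts of proteins that act with GFI1 and GFI1B, or that share the SNAG domain, changed by less than 1 on the log2 scale after GSK-LSD1. Of 24 listed genes for LSD1 and CoREST partners and for other SNAG domain proteins, 17 were tested, and 7 rose and 2 fell after GSK-LSD1, against 17.0% and 15.5% of all genes. The median log2 fold change of the list was 0.18, against -0.00 for all genes tested. Kdm1a, which encodes LSD1 itself, was at 1334 ± 30.7 in DMSO and 1288 ± 33.01 with GSK-LSD1 (log2 fold change -0.05 ± 0.06, limma adjusted p = 0.524). Rcor1, which encodes CoREST, was at 0.18 ± 0.10 (limma adjusted p = 0.163).

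Among the partners, Phf21a, a subunit of the LSD1 complex that binds unmodified histone H3, rose by 0.48 ± 0.09 (limma adjusted p = 0.000216). Rcor3, a relative of CoREST, rose by 0.44 (limma adjusted p = 0.0497), Hmg20b, an HMG-box subunit, by 0.32 (adjusted p = 0.0323) and Zmym2, a zinc finger subunit, by 0.26 (adjusted p = 0.0351). Hdac2, a histone deacetylase of the complex, fell by 0.28 (limma adjusted p = 0.00117). Snai3, a SNAG domain repressor, fell by 0.93 (limma adjusted p = 0.0145), from 30.2 ± 4.64 to 15.6 ± 4.05 counts. Insm1 and Scrt2, which also carry a SNAG domain, were at 0 in every library.

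Several of these calls were near the threshold. With any 1 library left out, 4 of the 9 calls remained in every case, those of Phf21a, Hdac2, Gse1 and Cbfa2t3. The count was 4 without DMSO replicate 2 and 5 without GSK-LSD1 replicate 1, 2 or 3. With a GC correction 5 rose and 4 fell, in a fit that also called more of all genes lower. Without ruxolitinib replicate 2 and combination replicate 3, 9 rose and 3 fell, in a fit that called 4879 genes in place of 3728. In the combination against DMSO again 7 rose and 2 fell, against 20.5% and 21.8% of all tested genes, with Rcor3 at 0.66 and Phf21a at 0.61 the largest rises that passed and Snai3 at -1.62 and Hdac2 at -0.40 the falls. Ruxolitinib alone and the combination against GSK-LSD1 gave no call in this list, against 1.63% and 1.40% of all genes in either direction.

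Genes reported elsewhere as targets of either repressor were followed next. Of 27 listed, 22 were tested, and 10 rose and 2 fell after GSK-LSD1, against 17.0% higher and 15.5% lower among all tested genes, with a median of 0.26 against -0.00. Without the 2 libraries that stood apart 14 rose and 2 fell, in a fit that called 4879 genes in place of 3728. Id3, an inhibitor of helix-loop-helix factors, rose by 2.87 ± 0.26 (limma adjusted p = 2.76e-08), from 14.2 ± 7.66 to 101 ± 4.86 counts, a larger change than that of either member. Il7r, a cytokine receptor chain of lymphocytes, rose by 1.42 (limma adjusted p = 0.00193), and Csf1, the growth factor of macrophages, rose by 1.32 (adjusted p = 8.3e-09). Tgfbr3, a co-receptor for TGF-beta, rose by 1.22 (limma adjusted p = 0.0164), but leaving out replicate 1 or 3 of DMSO, or replicate 1 or 2 of GSK-LSD1, ended that call (adjusted p 0.054 to 0.0667).

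The falls among these targets were Egr1 and Elane. Egr1, an immediate early transcription factor, fell by 1.23 ± 0.10 (limma adjusted p = 1.07e-08), and Elane, the neutrophil elastase gene of granulocyte precursors, fell by 0.82 ± 0.14 (adjusted p = 9.59e-05). Irf8, a transcription factor of monocytes, rose by 1.05 ± 0.21 (limma adjusted p = 0.000605), from 29.8 ± 2.88 to 62.8 ± 7.48 counts. Spi1, which encodes the myeloid factor PU.1, was at 0.23 ± 0.10 (limma adjusted p = 0.0869). Egr2 was too low to be tested. Of the 12 calls, 8 remained with any 1 library left out.

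Ruxolitinib alone gave 2 calls among the 22 tested targets, against 1.63% of all tested genes in either direction. Elane rose by 0.89 (limma adjusted p = 0.00251) and Egr1 fell by 0.55 (adjusted p = 0.00874, and 0.0654 without DMSO replicate 3). In the combination against DMSO 9 targets rose and 1 fell, against 20.5% and 21.8% of all tested genes, with Id3 at 3.05 and Csf1 at 1.60 the largest rises and Egr1 at -1.55 the fall. Against GSK-LSD1 alone, the combination raised Elane by 0.96 (limma adjusted p = 0.000273) and Cebpe, a factor of late granulocyte maturation, by 0.79 (adjusted p = 0.000322). Of all tested genes 1.05% passed as higher and 0.348% as lower there.

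Factors reported to bind or control Gfi1 or Gfi1b were counted in the same way. Of 25 listed, 22 were tested, and 5 rose and 4 fell after GSK-LSD1, near the 17.0% higher and 15.5% lower among all tested genes, with a median of -0.01. With a GC correction 2 rose and 8 fell, and without the 2 libraries that stood apart 6 rose and 5 fell. The GC-corrected fit also called more of all genes lower than the main fit. The fit without the 2 libraries called 4879 genes in place of 3728. Stat5b and Stat3, which carry cytokine signals, rose by 0.35 and 0.20 (limma adjusted p = 4.41e-05 and 0.00929), Erg, an ETS factor of stem cells, by 0.35 (0.00119), Cebpe by 0.31 (0.0407) and Gata2, a GATA factor of progenitors and mast cells, by 0.22 (0.00522). Besides Egr1, Lmo2, an adaptor in GATA complexes, fell by 0.52 (limma adjusted p = 1.3e-05), and Myb, a factor of progenitor growth, fell by 0.19 (adjusted p = 0.0112). Ikzf1, a zinc finger factor of lymphoid cells, fell by 0.16 (limma adjusted p = 0.0329). Runx1 was at -0.02 (adjusted p = 0.83) and Gata1 at -0.08 (adjusted p = 0.426).

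Leaving out any single library ended none of the calls of Stat5b, Erg, Egr1, Lmo2 and Gata2. Cebpe lost its call when replicate 1 or 2 of DMSO, or replicate 1 or 3 of GSK-LSD1, was left out, Myb without DMSO replicate 1, Stat3 without DMSO replicate 2, and Ikzf1 without any of 5 libraries. In the combination against DMSO 7 of the factors rose and 5 fell, against 20.5% and 21.8% of all tested genes, with Cebpe at 1.11 and Spi1 at 0.47 the largest rises and Egr1 at -1.55 and Lmo2 at -0.50 the largest falls. All changes in this list after GSK-LSD1 were smaller than the 1.86 of Gfi1.

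**Figure D3:**
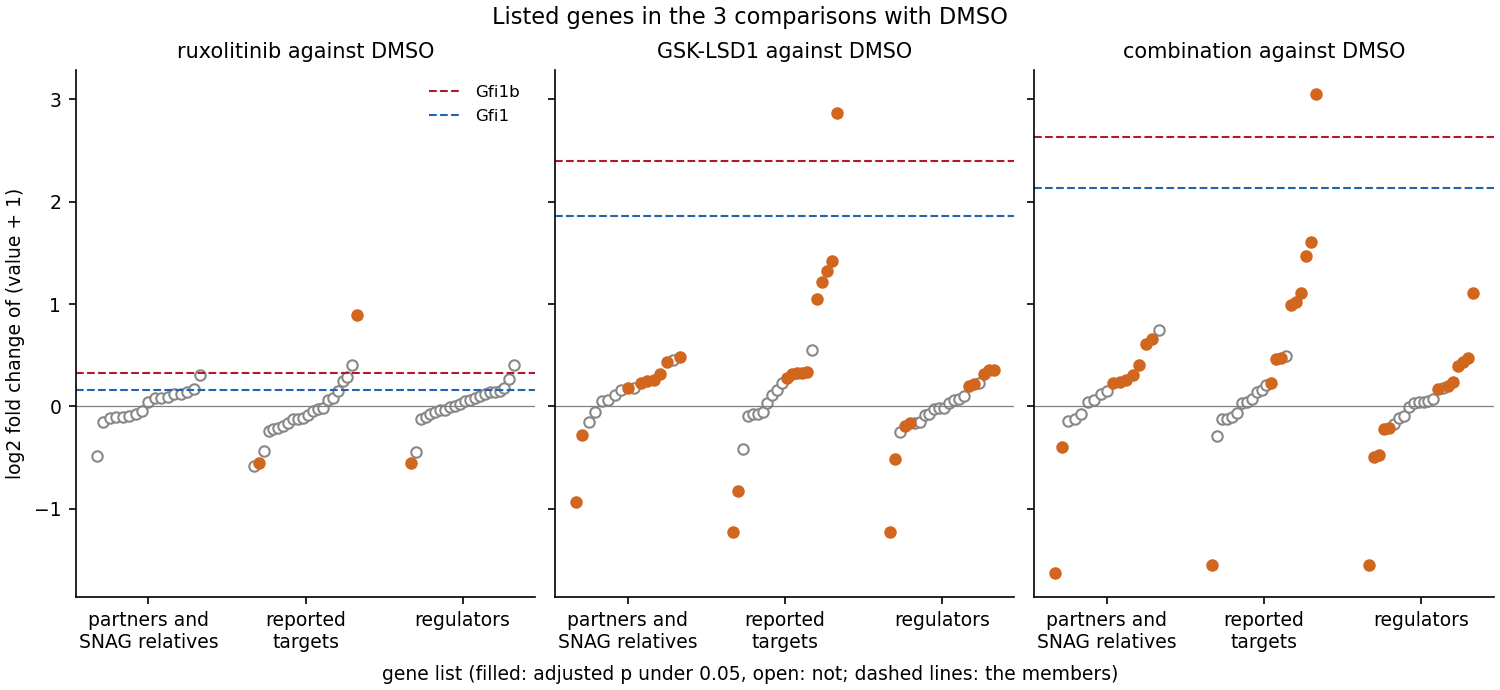
Log2 fold changes of the tested partners, targets and regulators in the 3 comparisons with DMSO; each point is a gene, filled where its adjusted p was under 0.05 and open where not, and dashed lines mark Gfi1b and Gfi1. After GSK-LSD1, Id3 at 2.87 is above the line of Gfi1b at 2.39, and the other genes of these 3 lists lie below that of Gfi1 at 1.86.

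Genes next to the members were examined for changes of the same size. Within 200 kb of Gfi1, 6 genes were tested, and their log2 fold changes after GSK-LSD1 ranged from 0.04 to 0.89. Of these, 2 passed as higher and none as lower, against 17.0% and 15.5% of all tested genes. Evi5, a regulator of small GTPases 18.8 kb from Gfi1, rose by 0.84 ± 0.29 (limma adjusted p = 0.0283), from 17.9 ± 8.16 to 30.6 ± 4.70 counts. The neighbour 1700028K03Rik rose by 0.89 ± 0.28 (limma adjusted p = 0.0186). Each of these calls was lost without any of 3 single libraries, with adjusted p of 0.0519 to 0.0914 for 1700028K03Rik and of 0.0601 to 0.224 for Evi5. In the combination against DMSO they rose by 1.38 and 1.33 (limma adjusted p = 0.000564 for Evi5 and 0.000643 for 1700028K03Rik), and both calls remained with any 1 library left out. In that comparison 20.5% of all tested genes passed as higher.

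Within 200 kb of Gfi1b, 5 genes were tested, and their changes after GSK-LSD1 ranged from -0.32 to 0.40. Of these, 2 passed as higher and 1 as lower, against 17.0% and 15.5% of all tested genes. Ralgds, an exchange factor for Ral GTPases, rose by 0.40 (limma adjusted p = 0.00526), and Tsc1, a brake on mTOR signalling 19.2 kb from Gfi1b, rose by 0.24 (adjusted p = 0.0248, lost without any of 4 single libraries). Mrps2, a protein of the mitochondrial ribosome, fell by 0.32 (limma adjusted p = 0.000481). All tested neighbours changed less than the member itself, at 1.86 for Gfi1 and 2.39 for Gfi1b. A smaller rise than these was also seen in 99.5% and 99.8% of all tested genes, so this does not set the neighbours apart from genes elsewhere.

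**Figure D4:**
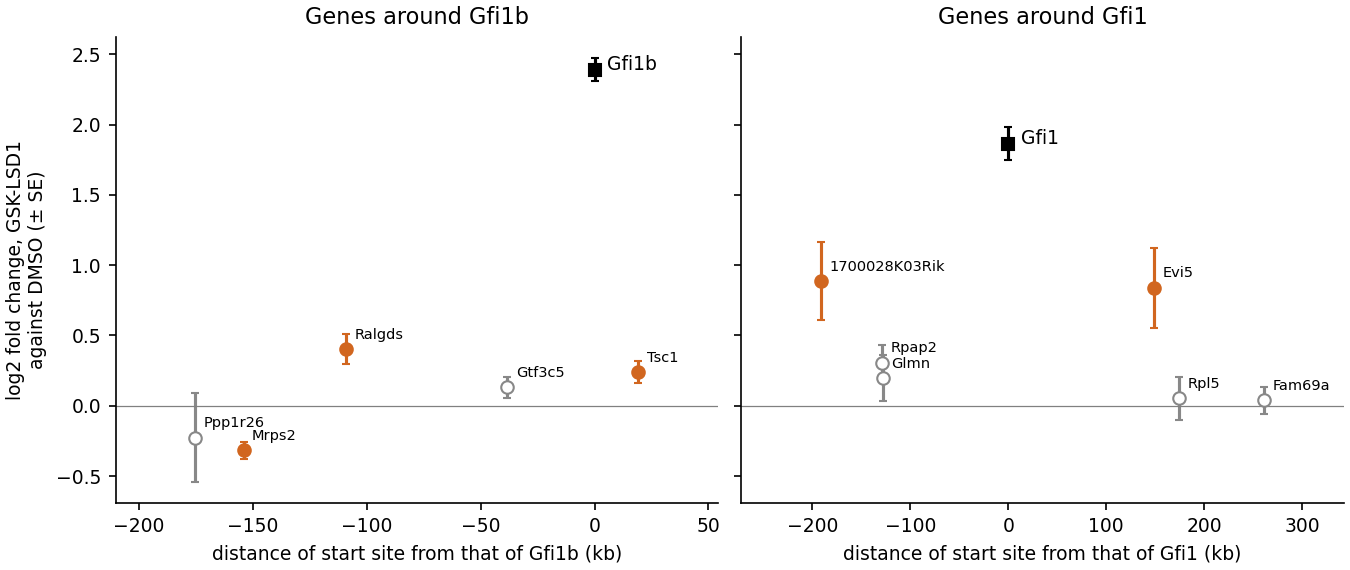
Log2 fold change after GSK-LSD1 against DMSO for tested genes within 200 kb of Gfi1b and of Gfi1, by distance between start sites along the chromosome (gene bodies within 200 kb); bars are ± SE, the black square is the member, filled points passed the test and open points did not. Neighbours lie between -0.32 and 0.89, and the members at 2.39 and 1.86.

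Finally, genes with the most similar course over the 12 libraries were named. Likeness was the root-mean-square difference of log2 profiles, each set to 0 at its own DMSO mean, over 8628 genes, and it describes these libraries only. Nearest to Gfi1b were Tubb3, a tubulin (0.14), Cd7, a surface protein of lymphoid cells and progenitors (0.25), Spsb1, a ubiquitin ligase adaptor (0.26), Procr, the endothelial protein C receptor found on blood stem cells (0.27), Emp1, a membrane protein (0.28), and Cd34, the progenitor antigen (0.30). Nearest to Gfi1 were Tecpr1, an autophagy protein (0.16), Vim, which encodes vimentin (0.19), Cd34 (0.20), Rbm47, an RNA-binding protein (0.21), Pld4, an endolysosomal nuclease (0.22), and Ctss, cathepsin S (0.23). Cd34 was thus on both lists. The members differed from each other by 0.40, which put Gfi1 at place 13 among the genes nearest to Gfi1b and Gfi1b at place 32 among those nearest to Gfi1.

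The named genes resembled the members mainly in their step between the libraries without and with GSK-LSD1. They were picked by likeness over these same libraries, so a shared step follows from the choice. Cd34 went from 263 counts in DMSO to 1020 with GSK-LSD1 and 1323 in the combination, and Vim from 2796 to 10393 and 10666. The median gene differed from the profile of Gfi1b by 1.82 and from that of Gfi1 by 1.46.

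**Figure D5:**
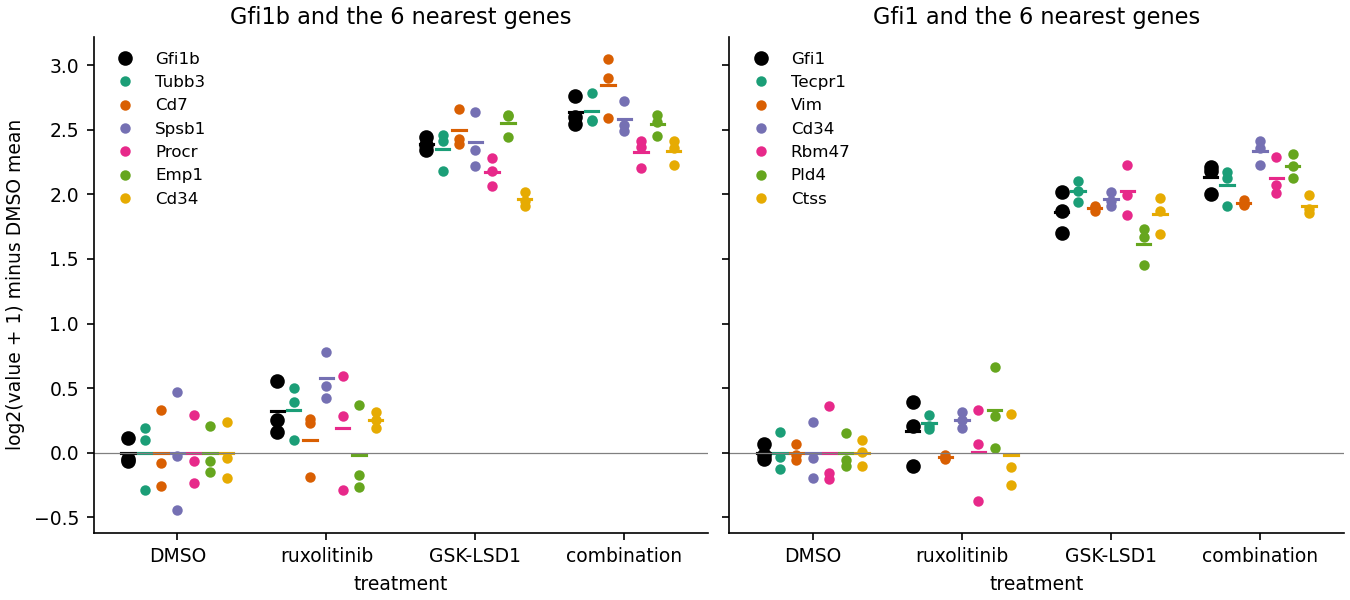
Course of Gfi1b, Gfi1 and the 6 genes most like each over the 4 treatments, as log2(value + 1) minus the gene's DMSO mean; points are libraries and short lines are means of 3. Gfi1b and its 6 genes all have GSK-LSD1 libraries well above those of DMSO and ruxolitinib, as do Gfi1 and its 6 genes. The genes were picked by likeness over these same libraries, so this follows from the choice.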

How the data were processed

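RNA-seq of total RNA was available for 12 libraries, 3 for each of 4 treatments, grouped by the submitters' labels. The deposited values are a normalised signal per gene: counts scaled library by library by the authors, plus a constant of 1e-05, as the values themselves show. The constant was taken off. The steps of the values lay between 0.9865 and 1.027 per library. The submitters' processing notes name STAR, DESeq2, mm10 and GRCm38 without versions or roles, and the counting program and strandedness are not given in the sources used here. Overlapping genes could therefore share reads. The deposited values were scaled and not whole reads, and multiples of the step were not taken as recovered reads. For that reason limma was used in place of a count test.

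A mean per treatment was fitted with limma 3.58.1 (R 4.3.3) to log2(value + 1) of the 11484 genes with a mean of at least 10, with a variance trend, all 12 libraries and 8 residual degrees of freedom. Benjamini-Hochberg adjustment ran over all tested genes in each comparison, and an adjusted p under 0.05 passed. The interaction was the combination minus both single effects on the log2 scale. Intervals are 95% intervals. The ratio of the members was tested by an exact permutation test. No block was used, because nothing says that replicate numbers mark a shared culture or day. In a later check, same-numbered libraries did not deviate together (1 of 18 pairs with r above 0.1). The fit was tested on simulated data. Alternatives were other pseudocounts, filters and scalings, array weights, a GC correction, a replicate block, separate groups and left-out libraries.

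The members and all gene lists were chosen with earlier results of these data known. The values of 1 listed marker are not reported here. Named were both members in every comparison, up to 4 rises and 4 falls per list after GSK-LSD1 and up to 2 and 2 elsewhere among calls, 10 genes of prior interest, tested neighbours within 200 kb that passed, and the 6 genes nearest in profile with a mean of at least 100 in their highest treatment. Marker genes such as Tpsab1, and Gse1, Cbfa2t3, Stat3, Gata1 and genes at 0 were named after their values were seen. Gene positions are from GENCODE vM21, and promoter windows from RefSeq GRCm38.p6, where both members matched by symbol.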

Additional observations from a re-analysis of the deposited data

Results flagged for a closer look

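The effect of GSK-LSD1 on Mmp8, a neutrophil collagenase on the granulocyte marker list, differed with and without ruxolitinib. Its interaction was 0.67 ± 0.10 on the log2 scale (limma adjusted p = 0.0236), with means of 2074 ± 158 in DMSO, 1932 ± 148 with ruxolitinib, 5405 ± 528 with GSK-LSD1 and 8019 ± 459 in the combination (n = 3 each). It was lost in 6 of the 12 fits that left out 1 library, with adjusted p of 0.0855 to 0.207. For Gfi1 and Gfi1b the same test gave an adjusted p of 1.00.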

How the results depend on the processing

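The rises of Gfi1b and Gfi1 with GSK-LSD1, alone or with ruxolitinib, against DMSO and against ruxolitinib, passed under all 23 alternatives to each. The change of the Gfi1b to Gfi1 ratio was 0.39 to 0.49 under its 15 alternatives (exact permutation p 0.00216 to 0.00794).

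Gfi1b was higher with ruxolitinib than with DMSO under all 23 alternatives, and this difference passed under 10. It did not pass with no filter (0.32, limma adjusted p = 0.105), a mean of at least 50 (0.32, 0.0502), only the groups compared (0.32, 0.0839) or a replicate block (0.32, 0.0867). With 1 library left out it ranged from 0.21 to 0.40. The difference of Gfi1b between the combination and GSK-LSD1 passed with array weights (0.21, limma adjusted p = 0.0352) and without ruxolitinib replicate 2 (0.24), with a range of 0.18 to 0.29 when 1 library was left out. With 1 library left out the interaction ranged from -0.16 to 0.037 for Gfi1b and from -0.030 to 0.22 for Gfi1. The opposite sign came without ruxolitinib replicate 2 for Gfi1b and without ruxolitinib replicate 3 for Gfi1, and neither value was past the threshold. The count of 9 changed partners ranged from 4 to 10 with 1 library left out.

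The number of genes called was 187 for ruxolitinib (32 to 552 over the alternatives), 161 for the combination against GSK-LSD1 (83 to 427) and 1 for the interaction (0 to 5). With the replicate block it was 112 for ruxolitinib, 3485 for GSK-LSD1 and 0 for the interaction. Replicate numbers were not shown to pair libraries, as 3 of 12 libraries correlated best with their own number. Restricting the fit to the groups compared does not apply to the interaction, which uses all 4. The cause of these changes was not tested. With 3 libraries per group, a difference that did not pass is limited only by its interval.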
